A study of Apeltes quadracus with 85 samples.

Results

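Total expression of HOXD9B and HOXD11B, genes of the HOXDB cluster, was compared in the third dorsal spine (DS3) of the stickleback Apeltes quadracus. The groups were 7 fry that carry the H haplotype of the HOXDB gene cluster and 4 fry that do not. Haplotype H is associated with a high number of dorsal spines, haplotype L with a low number, and LHR is a recombinant of both. The H carriers were 4 H/L fish and 3 H/LHR fish, the others were L/LHR fish, and genotype and tissue were read from the sample titles. These 11 libraries are part of 85 libraries from 8 tissues of 11 fish, and the 11 anal fin (AF) libraries of the same fish served as the control tissue.

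All fish were lab-raised Louisbourg fry obtained by in vitro fertilization. They were kept in 10% seawater at 16 °C and dissected at a standard length of 11 to 13 mm (stage 31, when the median fin fold is present). Every fish carried 2 different haplotypes, so each carrier had 1 H copy beside an L or an LHR copy, and no fish with 2 H copies was analysed here. Each replicate is 1 fish. The clutch of each fish was not given in the sources used here, so p-values measure the spread between these fish.

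Hox genes encode transcription factors that give cells their position along the body axis, and they lie in clusters whose order mirrors their domains of expression. HOXD9B and HOXD11B belong to the duplicated HOXDB cluster of teleost fish. The paper also places HOXD4B in this cluster, and no level of HOXD4B is given here. In sticklebacks the dorsal spines and median fins form after the early body axis is laid down, within a fold of tissue along the midline. The question was whether a low share of reads from the H copy in DS3 goes with fewer HOXD9B and HOXD11B reads in total.

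Genotypes at the cluster were assigned by the study with a pair of markers between HOXD9B and HOXD11B on chromosome 6. Their primers are shown because they define the groups compared here (each 5′ to 3′, in lower case).
AQ-HOXDB_6F: cagctgctcttaatgtcgcc
AQ-HOXDB_6R: caaagagggagagcagacgg
AQ-HOXDB_7F: gctgtgacttgtttcaaatgcc
AQ-HOXDB_7R: taagtggctcgcgtttaccg

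The level of HOXD9B and HOXD11B was read from the deposited counts of reads per allele at single-nucleotide variants. Reads of both alleles were summed over the 67 listed sites in a window of chromosome 6 from 16017516 to 16031519 (coordinates of the study's Apeltes assembly), and divided by the reads counted in the whole library in M (mega), which gives reads per M (RPM). Sites nearer to the variant that the study used for HOXD11B (position 16020516) formed the HOXD11B part with 27 sites, and those nearer to its HOXD9B variant (position 16028519) the HOXD9B part with 40 sites. No gene annotation was used, so these names rest on the study, and the labelled tissues could not be checked against marker genes. A read that spans several sites counts at each of them.

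The DS3 libraries held 5.0 to 39.2 M counted reads and the AF libraries 25.4 to 46.6 M. DS3 of L/LHR replicate 2 stood apart, with 5.0 M reads against at least 22.6 M in the other 10 DS3 libraries. Its 10 highest 10-kb bins took 34.5% of its reads, compared with 20.8% to 24.3% in the others. At sites where fish differ, each DS3 library matched the AF library of its own fish at 99.97% or more of the calls. The fish were cut into 2 clusters by genotype similarity, a number set beforehand. These were a cluster of 3 (L/LHR replicate 1 with replicates 1 and 2 of H/LHR) and a cluster of 8. The split was not sharp. Pairs of fish shared 49.53% to 60.0% of genotypes within a cluster and 37.1% to 49.45% between clusters.

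In DS3 the HOXDB window was lower in carriers than in L/LHR fish, by a margin that passed 0.05 before but not after adjustment for multiple tests. The 4 H/L fish had 5.62, 5.92, 16.3 and 13.0 RPM (replicates 1 to 4), and the 3 H/LHR fish had 13.1, 12.2 and 12.6 RPM. In the 4 L/LHR fish the window had 15.7, 21.4, 21.9 and 25.7 RPM. Thus 6 of 7 carriers were below the lowest L/LHR fish, and the groups overlapped through H/L replicate 3 alone.

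The mean was 11.3 ± 3.98 RPM in carriers (SD, n = 7) and 21.2 ± 4.14 RPM in L/LHR fish (SD, n = 4). On the log2 scale, with 0.5 reads added to each library, carriers differed from L/LHR fish by -0.99 (95% interval -1.73 to -0.27), which is 0.505-fold (0.302-fold to 0.831-fold). An exact permutation test over all 330 arrangements of the fish gave p = 0.0242 (two-sided; smallest possible p = 0.00303). Over the 6 tests of the window and its parts the adjusted p was 0.0727.

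**Figure D1:**
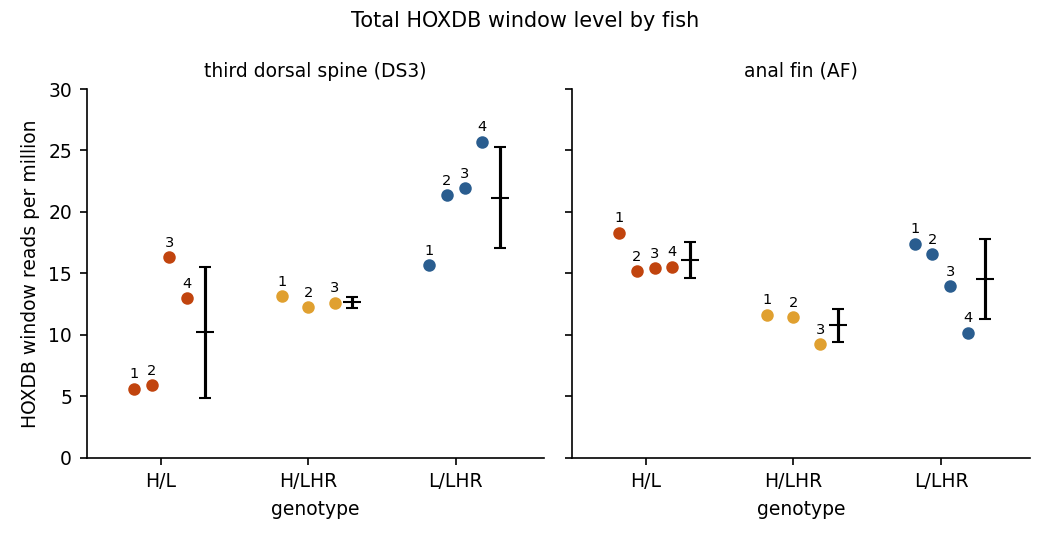
HOXDB window RPM in each fish (points, numbered by replicate) for DS3 and AF, with the mean ± SD of each genotype beside the points. In DS3, 6 of 7 H carriers lie below the lowest L/LHR fish at 15.7, and in AF the L/LHR fish overlap both carrier genotypes, which do not overlap each other.

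The result lay close to the threshold, and the choice of scale moved it. In DS3 the median of 20659 bins was itself 0.22 higher in carriers on the log2 scale when library totals were the denominator. Scaling factors by the TMM method set L/LHR replicate 2 apart, at -1.11 on the log2 scale against -0.48 to 0.09 in the other DS3 libraries. With TMM factors, which remove such a shift, the window differed by -1.18 and passed (exact permutation test, adjusted p = 0.0455). This call was lost without the shallow L/LHR replicate 2, where 3 L/LHR fish remain. The difference was then -0.93 with TMM factors (exact permutation test, adjusted p = 0.133) and -0.97 with library totals (exact permutation test, adjusted p = 0.138). With TMM factors no other fish was left out. With library totals, leaving out L/LHR replicate 1, 3 or 4 gave adjusted p = 0.1, 0.175 and 0.2 (exact permutation test). Within the larger cluster of fish the difference was -1.23 (5 carriers against 3 L/LHR fish; exact permutation test, p = 0.0536). The smaller cluster held 1 L/LHR fish and gives no test.

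Both carrier genotypes lay on the same side. The H/L fish differed from L/LHR fish by -1.19 (95% interval -2.19 to 0.05) and the H/LHR fish by -0.72 (-1.42 to 0.24). Each of these gave p = 0.0571 (exact permutation test; smallest possible p = 0.0286; adjusted p = 0.147 over 18 tests of pairs of genotypes). The spread within genotypes was unlike. The H/L fish spanned 5.62 to 16.3 RPM, whereas the H/LHR fish lay within 12.2 to 13.1 RPM.

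Both parts of the window were lower on average in carriers. The HOXD9B part, which held most of the reads, had 8.46 ± 3.03 RPM in carriers (SD, n = 7) and 16.2 ± 3.06 RPM in L/LHR fish (SD, n = 4). By fish it was 4.44, 4.71, 13.0 and 10.2 RPM in H/L, 9.12, 9.33 and 8.46 RPM in H/LHR, and 12.2, 19.2, 15.6 and 17.9 RPM in L/LHR fish. Only H/L replicate 3 reached the range of the L/LHR fish. The log2 difference was -1.01 (95% interval -1.74 to -0.29; exact permutation test, p = 0.0182, adjusted p = 0.0727).

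The HOXD11B part had 2.80 ± 1.21 RPM in carriers and 4.94 ± 2.56 RPM in L/LHR fish. By fish it was 1.17, 1.21, 3.29 and 2.83 RPM in H/L, 4.01, 2.90 and 4.17 RPM in H/LHR, and 3.44, 2.20, 6.35 and 7.76 RPM in L/LHR fish, of which replicate 2 had 11 reads. H/L replicates 1 and 2 lay lowest here, the groups overlapped widely, and the log2 difference of -0.81 did not pass before adjustment (95% interval -1.93 to 0.34; exact permutation test, p = 0.124, adjusted p = 0.149).

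Single sites showed the same direction. Of the 67 sites, 27 had at least 100 reads summed over the DS3 and AF libraries, and at all 27 the mean level in DS3 was lower in carriers (log2 differences of -1.44 to -0.35, median -1.09). On the same scale 24.1% of 20659 bins of the genome were lower in carriers, and the share over single sites was not computed. The groups did not overlap at 3 of these 27 sites with 0.5 reads added, and at 2 without (16021454 alone in both counts). Over the genome, 232595 sites had as many reads, and the share without overlap and with carriers lower was 0.199% with the added reads and 0.127% without. Since neighbouring sites share reads and all sites share fish, these are not independent measurements.

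At the HOXD11B variant at 16020516, DS3 carried 10, 5, 14 and 12 reads in H/L fish, 15, 14 and 19 in H/LHR fish, and 20, 3, 30 and 35 in L/LHR fish. Per M reads this was 0.137 to 0.634 in carriers and 0.600 to 1.11 in L/LHR fish. With 0.5 reads added, the log2 levels of the groups did not overlap (difference of -1.09; exact permutation test, p = 0.0212, adjusted p = 0.145 over 12 tests of named sites). Without the added reads the value of L/LHR replicate 2, from 3 reads, falls within the range of the carriers.

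At the HOXD9B variant at 16028519, DS3 carried 16, 15, 22 and 23 reads in H/L fish, 24, 30 and 30 in H/LHR fish, and 34, 5, 43 and 52 in L/LHR fish. The carriers had 0.409 to 1.02 RPM and the L/LHR fish 0.999 to 1.65 RPM. With 0.5 reads added the groups again did not overlap, but without them L/LHR replicate 2, with 5 reads, falls within the range of the carriers. With the added reads the log2 difference was -0.84 (exact permutation test, p = 0.0242, adjusted p = 0.145). Of the other 4 sites chosen for their read number (16019019, 16021251, 16027828 and 16028835), none passed before adjustment, and their differences ranged from -1.19 to -0.35.

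The anal fin of the same fish was the control tissue, in which H gave a larger share of the reads than in DS3. The window had 18.3, 15.2, 15.4 and 15.5 RPM in AF of H/L fish, 11.6, 11.5 and 9.25 RPM in H/LHR fish, and 17.4, 16.6, 14.0 and 10.2 RPM in L/LHR fish. The L/LHR fish overlapped both carrier genotypes, while every H/L fish was above every H/LHR fish. The log2 difference was -0.07 (95% interval -0.59 to 0.43; exact permutation test, p = 0.761, adjusted p = 0.887 over 7 tissues). Its sign depended on the fish used. It was 0.18 with the H/L fish as the carriers, and positive also in the larger cluster of fish.

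Relative to the AF library of the same fish, the DS3 difference was about as large but less certain. The ratio of DS3 to AF was 0.307, 0.390, 1.06 and 0.836 in H/L fish, 1.13, 1.07 and 1.36 in H/LHR fish, and 0.901, 1.30, 1.57 and 2.53 in L/LHR fish. The log2 difference between carriers and L/LHR fish was -0.91 (95% interval -2.04 to 0.23), and it did not pass (exact permutation test, p = 0.109, adjusted p = 0.149). The groups overlapped, with 3 of 7 carriers below the lowest L/LHR fish.

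The carrier genotypes differed in how they lay around the L/LHR fish here. The H/L fish differed from them by -1.36 (95% interval -3.03 to 0.23; exact permutation test, p = 0.0571) and the H/LHR fish by -0.31 (-2.13 to 1.33; exact permutation test, p = 0.571). The H/L and H/LHR fish were not shown to differ from each other (difference of -1.05, 95% interval -3.13 to 1.02; exact permutation test, p = 0.143). The HOXD9B part differed by -0.97 between carriers and L/LHR fish (exact permutation test, p = 0.0636, adjusted p = 0.127), and the HOXD11B part by -0.60 (exact permutation test, p = 0.418, adjusted p = 0.418). Without 1 fish the value for the HOXD11B part ranged from -0.90 (without H/LHR replicate 1) to -0.22 (without L/LHR replicate 4). For this part the sign turned with the genotype, from -1.47 in H/L fish to 0.56 in H/LHR fish. In DS3 alone the H/LHR fish differed from L/LHR fish by -0.28 (95% interval -2.15 to 1.94). Their AF levels of this part were the lowest of all fish, at 1.28, 2.06 and 2.125 RPM. The other fish had 2.54 to 4.52 RPM in AF.

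**Figure D2:**
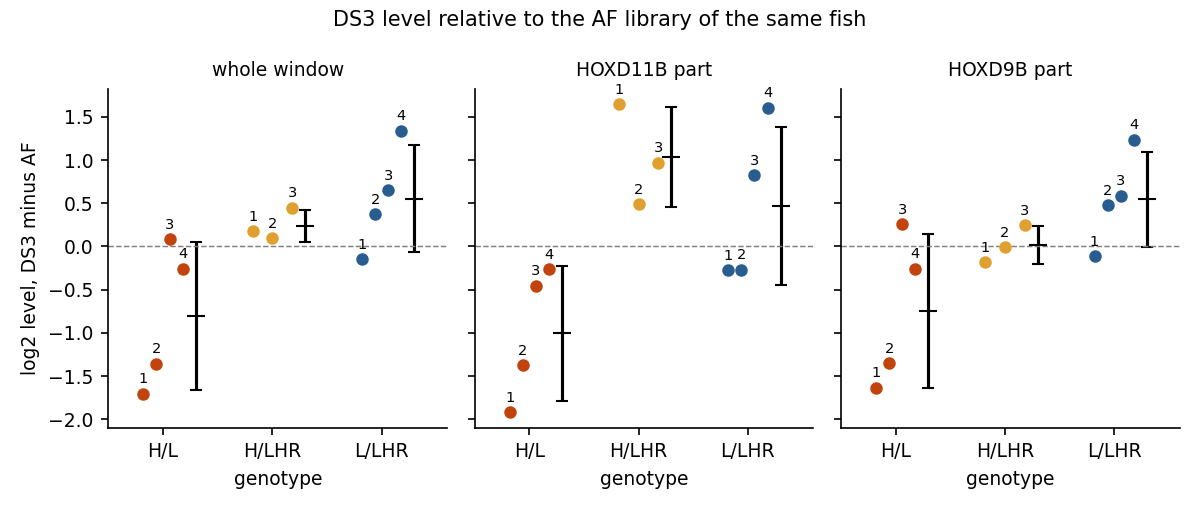
Log2 level in DS3 minus log2 level in AF of the same fish, for the whole window and its HOXD11B and HOXD9B parts, with points numbered by replicate, mean ± SD beside them and a dashed line at equal levels. H/L replicates 1 and 2 lie lowest at -1.70 and -1.36 for the whole window, and for the HOXD11B part all H/L fish lie below 0 and all H/LHR fish above it.

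The split by haplotype tells how much of the DS3 total came from each copy. Of the 67 sites, 27 separated 1 haplotype from the others, of which 21 tell H from L and 18 tell H from LHR. The L haplotype carries the reference base at all 27, whereas H differs from the reference at 21 of them and LHR alone differs at the other 6. At the 18 sites that tell H from LHR, H has the other base at 12 and LHR at 6. A loss of reads with the other base in mapping was not tested. At sites homozygous in both carrier genotypes, the DS3 difference was -0.97 for the window, -1.07 for the HOXD9B part and -0.33 for the HOXD11B part. In AF the H copy gave 34.2% of 909 reads in H/L fish and 45.1% of 481 reads in H/LHR fish.

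In DS3 the H copy gave 4 of 68, 4 of 71, 4 of 133 and 16 of 109 reads in H/L replicates 1 to 4. These are shares of 5.88%, 5.63%, 3.01% and 14.7% (95% exact binomial intervals 1.63% to 14.4%, 1.56% to 13.8%, 0.825% to 7.52% and 8.63% to 22.7%). In H/LHR replicates 1 to 3 it gave 8 of 145, 14 of 168 and 10 of 199 reads, or 5.52% (2.41% to 10.6%), 8.33% (4.63% to 13.6%) and 5.03% (2.44% to 9.05%). The intervals cover counting error only, and reads that span several sites make them too narrow. Every carrier had less from H in DS3 than in AF, H/L replicate 3 with the highest total included.

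If the other copy of a carrier stood at the level of 1 copy in an L/LHR fish, the shares in DS3 alone would put the total at -0.89 ± 0.08 on the log2 scale in H/L fish (SD, n = 4) and at -0.91 ± 0.03 in H/LHR fish (SD, n = 3). These values are arithmetic from the shares and not measured differences. The measured differences of the window total, -1.19 and -0.72, lie on either side of them, and the intervals of both hold these values as well as 0. In AF the shares alone would put the total at -0.39 ± 0.07 in H/L and -0.13 ± 0.12 in H/LHR fish. The measured AF differences of the window were 0.18 in H/L and -0.41 in H/LHR fish (exact permutation test, p = 0.486 and 0.171). In H/L fish the measured AF value thus had the opposite sign to that from the shares.

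The level of the other copy was therefore compared with that of 1 copy in L/LHR fish, at the same sites. In L/LHR fish this level is the mean of an L and an LHR copy, and whether these are equal was not tested here. At the sites that tell H from L, the L copy of H/L fish had 3.10 ± 1.61 RPM in DS3 (SD, n = 4). It was 1.63, 1.84, 4.83 and 4.11 RPM in replicates 1 to 4. Replicates 1 and 2, with the lowest window totals, were thus also lowest in the L copy. Their H shares, 5.88% and 5.63%, lay between those of replicates 3 and 4. The H copy of the H/L fish had 0.267 ± 0.294 RPM. Reads of L/LHR fish divided by 2 copies gave 4.22 ± 1.13 RPM per copy (SD, n = 4). The L copy was not shown to differ from it (log2 difference of -0.57, 95% interval -1.78 to 0.73; exact permutation test, p = 0.257, adjusted p = 0.343 over 4 tests). Without 1 fish this value ranged from -0.83 (without H/L replicate 3) to -0.31 (without H/L replicate 1).

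At the sites that tell H from LHR, the LHR copy of H/LHR fish had 5.27 ± 0.575 RPM in DS3 (SD, n = 3) and the H copy 0.348 ± 0.0700 RPM. The L/LHR fish had 4.49 ± 1.23 RPM per copy (SD, n = 4). On the log2 scale the LHR copy was 0.25 higher, which did not pass (95% interval -0.87 to 1.01; exact permutation test, p = 0.343, adjusted p = 0.343). Without 1 fish it ranged from 0.15 (without L/LHR replicate 1) to 0.42 (without L/LHR replicate 4). Both intervals are wide and hold higher as well as lower levels of the other copy, so neither an equal nor a raised level can be read from these fish.

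Relative to AF the other copy differed by -1.16 in H/L fish (95% interval -3.08 to 0.53; exact permutation test, p = 0.114) and by 0.68 in H/LHR fish (-1.63 to 2.07; exact permutation test, p = 0.229), with adjusted p = 0.343 for both. In AF itself the L copy of H/L fish had 3.79 ± 0.745 RPM against 2.52 ± 0.577 per copy in L/LHR fish. The LHR copy of H/LHR fish had 2.24 ± 0.161 RPM against 3.07 ± 0.752.

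**Figure D3:**
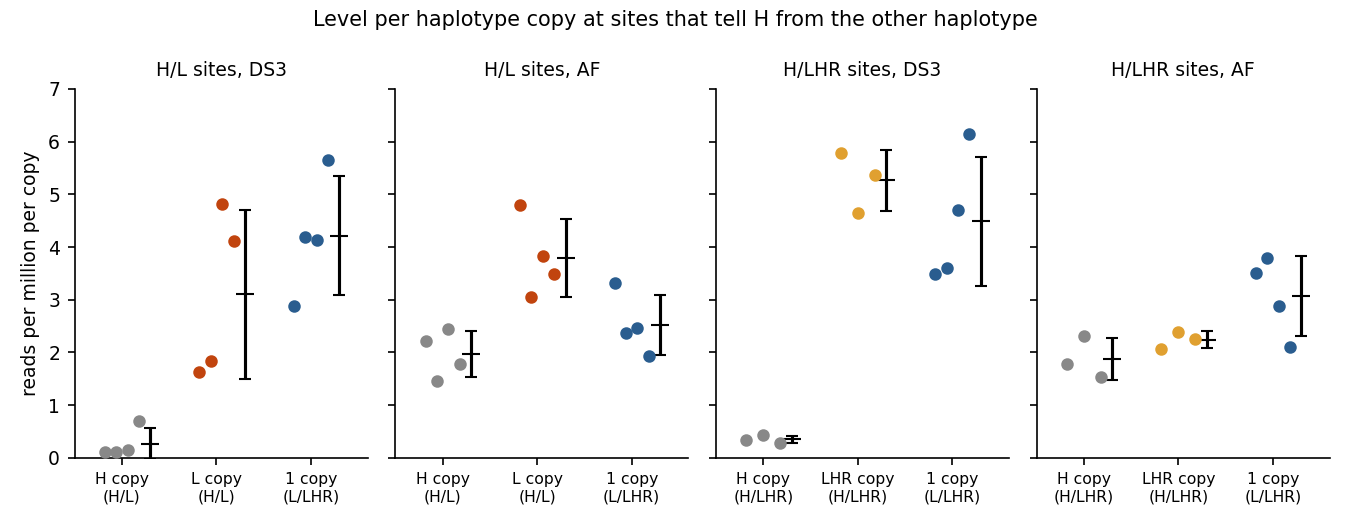
RPM per haplotype copy in DS3 and AF at the sites that tell H from L (H/L fish) and H from LHR (H/LHR fish), 1 point per fish with mean ± SD, beside the reads of L/LHR fish at the same sites divided by 2 copies. In DS3 the H copy lies at 0.707 or below in every carrier, and the other copy overlaps the L/LHR fish.

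Among the tissues, DS3 gave the smallest unadjusted p between carriers and L/LHR fish, though not the largest log2 difference. In DS1 the window had 0 to 15 reads per library in carriers and 0 to 4 in L/LHR fish, close to the floor of 3 reads, so no fold is given. In DS2 carriers had 0.203 to 1.99 RPM (median 1.05) and L/LHR fish 1.11 to 3.44 RPM (median 2.402), a log2 difference of -1.48 (95% interval -3.12 to -0.02; exact permutation test, p = 0.0485, adjusted p = 0.170). These levels rest on few reads, 8 to 75 per library in carriers and 38 to 97 in L/LHR fish. The H/L fish had 9, 8, 15 and 13 reads, and each lay below the lowest L/LHR fish in RPM. Every H/LHR fish, at 1.63, 1.33 and 1.99 RPM, lay within the range of the L/LHR fish. For allele ratios the paper did not assess DS1 and DS2, as their counts were too low. H/L replicates 1 and 2, which were lowest in DS3, were also the lowest carriers in DS2, at 0.376 and 0.203 RPM.

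Further back the groups lay closer together. The blank pterygiophore (Pter, a fin support that bears no spine) had a median of 18.1 RPM in carriers and 24.5 RPM in L/LHR fish, with 6 of 7 carriers below the lowest L/LHR fish (log2 difference of -0.30, 95% interval -0.73 to 0.20; exact permutation test, p = 0.230). The last dorsal spine (DSL) had 50.6 and 46.7 RPM (-0.02, -0.61 to 0.52; exact permutation test, p = 0.930). The dorsal fin (DF) had 12.03 and 14.5 RPM, again with 6 of 7 carriers below the lowest L/LHR fish (-0.35, -0.79 to 0.11; exact permutation test, p = 0.112). In the fourth spine (DS4) carriers spanned 20.99 to 26.04 RPM (n = 7) and the 1 L/LHR library had 23.1 RPM. DS4 forms in some fry only, and L/LHR replicate 1, whose DS3 level was the lowest of the L/LHR fish, was the only one of these 4 fish with a DS4 library. Carrying H and having a DS4 library thus nearly coincide, and their parts in the DS3 difference cannot be told apart. None of the 7 tissues passed after adjustment over tissues, DS3 included (adjusted p = 0.170 for DS3).

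The difference in DS3 was not shown to be particular to that spine. As a difference within each fish, DS3 against Pter separated carriers from L/LHR fish by -0.69 (95% interval -1.68 to 0.19; exact permutation test, p = 0.127) and DS3 against DSL by -0.96 (-1.91 to 0.02; exact permutation test, p = 0.0606). DS3 against DF gave -0.64 (-1.68 to 0.41; exact permutation test, p = 0.185) and DS3 against DS2 0.49 (-0.57 to 1.65; exact permutation test, p = 0.330). The DS2 levels rest on few reads, as given above. DS3 against DS1 gave -2.57 (-4.71 to -0.31; exact permutation test, p = 0.0303), but the DS1 levels were close to the floor. With 0 reads in DS1 a level depends on depth alone. It was -2.10 in H/L replicate 1 (2.15 M reads) and -6.14 in L/LHR replicate 1 (35.3 M reads). The contrast with DS1 is therefore not read as a difference in DS3. Over these tests and that against AF, 6 in all, the adjusted p was 0.182 or more. In dissected tissue, fewer cells that express these genes and less RNA per cell cannot be told apart.

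**Figure D4:**
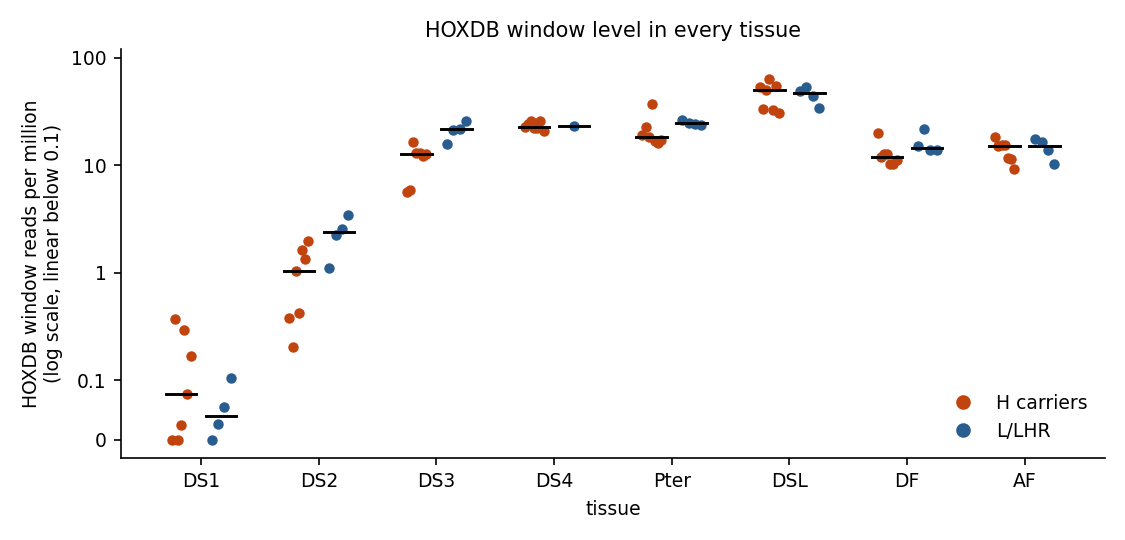
HOXDB window RPM in every library by tissue (log scale, linear below 0.1), with the median of each group as a bar. The medians of H carriers lie below those of L/LHR fish in DS2 (1.05 and 2.402) and DS3 (12.6 and 21.7). They are also lower in Pter (18.1 and 24.5) and DF (12.03 and 14.5), and close to them in DSL and AF. In DS1 the median of carriers is the higher (0.077 and 0.040), at levels close to the floor.

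The window was set against the rest of the genome by summing reads over fixed 10-kb bins and testing each bin with edgeR. In DS3, 20659 bins were tested and 0 passed a false discovery rate (FDR) of 0.05 (0% of bins), while DESeq2 called 4 of them. At an unadjusted p under 0.05, edgeR listed 927 bins, 548 of them lower in carriers (2.65%). By chance this threshold lists about 0.05 of the bins tested, more than were listed here or relative to AF. Relative to AF, 22180 bins were tested and 0 passed (0% of bins; DESeq2 also 0), with 511 at an unadjusted p under 0.05 and 297 of these lower in carriers (1.34%).

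The bin from 16020001 to 16030000 on chromosome 6 holds most of the window. With TMM factors from the DS3 and AF libraries it had 5.51, 5.82, 15.7 and 14.3 reads per M in DS3 of H/L fish. It had 14.7, 15.3 and 10.9 in H/LHR fish, and 19.3, 44.3, 18.3 and 25.7 in L/LHR fish. The groups did not overlap. With factors from the DS3 libraries alone, carriers reached 3.77 on the log2 scale and L/LHR fish began at 4.01. On that scale 43 of the 20659 bins had no overlap with carriers lower (0.208%). The highest of the 11 listed levels was that of the shallow L/LHR replicate 2, from 106 reads. The fitted log2 difference was -1.17 (edgeR, unadjusted p = 0.00335, FDR = 1.00), rank 47 by p among all bins. Without L/LHR replicate 2 it was -0.85 (edgeR, unadjusted p = 0.0190).

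Relative to AF the same bin differed by -1.11 (edgeR, unadjusted p = 0.0164, FDR = 1.00) and ranked 110 by p. There its groups overlapped, whereas 30 of 22180 bins did not overlap with carriers lower (0.135%).

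**Figure D5:**
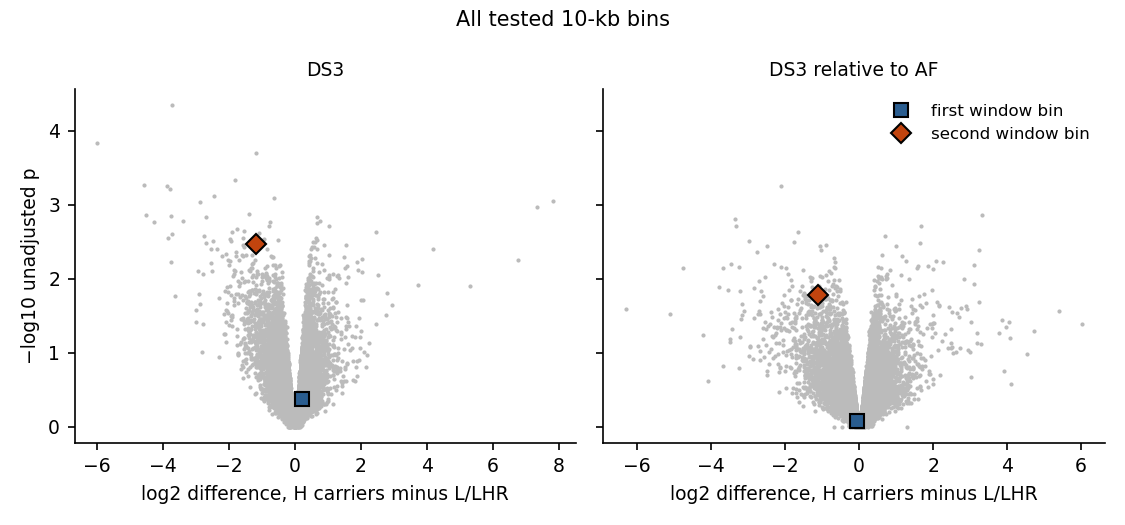
Each tested 10-kb bin by its edgeR log2 difference (H carriers minus L/LHR) and −log10 of its unadjusted p, in DS3 and in DS3 relative to AF, with both tested bins that the HOXDB window touches marked. The second window bin lies at -1.17 in DS3 and -1.11 relative to AF, inside the cloud of other bins. The first, whose reads come mostly from sequence before the window, lies near 0.

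Neighbouring bins did not share the difference. The bin from 16010001 to 16020000, which holds the start of the window and the sequence before it, differed by 0.23 in DS3 (edgeR, unadjusted p = 0.416) and by -0.06 relative to AF (edgeR, unadjusted p = 0.836). Most of its reads lie outside the window. In DS3 of H/L replicate 1 it held 435 reads, whereas the whole window held 220, of which 211 fell in the next bin. The 6 other bins tested within 50 kb of the window had differences of -0.12 to 0.14 in DS3 (smallest unadjusted p = 0.455) and -0.30 to 0.13 relative to AF (smallest unadjusted p = 0.251). The last bin that the window touches had too few reads to be tested. Where HOXD4B lies in this assembly was not determined, so the bins around the window may include it.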

How the data were processed

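RNA-seq libraries were made from 20 to 100 ng RNA with a stranded mRNA kit. Per the labels and the paper, trimming by the authors used Trim Galore and cutadapt 2.4, mapping used STAR on a linked-read assembly of a four-spine Louisbourg fish scaffolded on Gasterosteus, and later steps used Picard 2.23.4, SAMtools 1.10 and GATK 4.1.4.1. The deposited files hold, for 1 library each, the raw counts of reference and alternate reads at listed variants, which the authors made with ASEReadCounter. Duplicate removal and a filter against mapping bias are not given in the sources used here.

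Both alleles were summed, and a site missing from a library was taken as 0 reads. Levels were log2 of reads plus 0.5, per M (mega) reads counted in the library. Groups were compared with an exact two-sided permutation test over fish, 95% intervals inverted that test in steps of 0.01, and p-values were adjusted by the Benjamini-Hochberg method within each family named in the text. A haplotype was assigned its own base at a site from reads pooled over each genotype (at least 20 reads, minor share of at least 10% for heterozygous and at most 2% for homozygous). Bins of 10 kb with at least 10 reads in at least 4 libraries were tested with edgeR 4.0.16 (quasi-likelihood, TMM), and relative to AF with a term for each fish and the tissue by carrier term. DS3 and AF come from the same fish, and their deviations correlated across bins in all 11 fish (r of 0.14 to 0.58). DESeq2 1.42.0 was an alternative. Computations used R 4.3.3 and Python 3.11.15 with numpy 2.4.6, pandas 2.3.3, scipy 1.17.1 and matplotlib 3.10.9.

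Sites and bins were named by a rule: the window, its parts, the study's variants, the 3 window sites per part with most reads, the bins that the window touches, and called bins without overlap, of which there were none. The comparison, window and lists were chosen with earlier results of these data known.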

Additional observations from a re-analysis of the deposited data

Results flagged for a closer look

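Among the groups of 4 to 10 fish whose window levels were checked for a fish far from the rest, 2 of 23 were singled out, and chance flags about 1 in 20. H/L replicate 4 had a log2 level of 5.22 in Pter, against 4.52 in the next carrier. H/L replicate 1 had a log2 level of 4.31 in DF, against 3.68 in the next carrier.

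For the HOXD11B part, every H/L fish was lower in DS3 than in AF and every H/LHR fish was higher, a difference between these genotypes of -2.04 on the log2 scale (95% interval -4.18 to -0.31). This contrast was singled out from 12 pairs of groups compared for direction, because the fish of its genotypes lay on opposite sides of equal levels. The exact permutation test gave p = 0.0286, the smallest p that 35 arrangements allow, and the adjusted p over 18 tests was 0.147. Groups picked for lying on opposite sides are fully separated, which by itself puts p at or near its smallest value. Neither the unadjusted p nor the interval is therefore read as a test of this contrast. L/LHR fish lay on both sides, from -0.28 to 1.61. In DS3 alone the H/L fish differed from H/LHR fish by -0.93 for this part. In AF it had 3.16 to 4.52 RPM in H/L fish and 1.28 to 2.125 RPM in H/LHR fish, so the control tissue adds to the contrast.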

How the results depend on the processing

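The DS3 difference of the window kept its sign in all alternatives, which ranged from -1.23 to -0.72 on the log2 scale, and from -1.12 to -0.84 when each fish was left out. Its adjusted p ranged from 0.0143 to 0.20, so its side of 0.05 was not stable. TMM factors gave -1.18 for the window and -1.21 for the HOXD9B part, and linear RPM with a rank test, in a family of 3 tests, gave -9.91 and -7.77 RPM, all of them past the threshold. So did leaving out H/L replicate 1, 2 or 3. The HOXD9B part ranged from -1.14 to -0.87 when each fish was left out. The value with TMM factors and without L/LHR replicate 2 was added after seeing the data. Relative to AF, no alternative passed for the window, and with DF as the control the difference was -0.64.

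Signs turned for 3 results. The AF difference was 0.18 with H/L fish only and 0.11 in the larger cluster, and ranged from -0.24 to 0.023 when each fish was left out. The HOXD11B part relative to AF was 0.56 with H/LHR fish only, and from -0.90 to -0.22 when each fish was left out. For the bin from 16010001 relative to AF, the difference was 0.068 with library totals, 0.057 with sites listed in all libraries, 0.12 with H/L fish only, and from -0.30 to 0.12 when each fish was left out.

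DESeq2 called 4 bins in DS3 and every other setting called 0, leaving out each fish included (0 to 0). The numbers in the titles name fish, not pairs across genotypes. With a replicate block edgeR also called 0 bins in DS3, and 0 relative to AF without it. The levels per copy in DS3 kept their signs in all alternatives, from -0.83 to -0.31 for the L copy of H/L fish and from 0.10 to 0.46 for the LHR copy of H/LHR fish, and none passed. Depth limits the split by haplotype, since the H copy gave 4 to 16 reads per fish in DS3.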
